A study of Mus musculus with 6 samples.

Results

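Interferon regulatory factors (IRFs) are transcription factors that share a DNA-binding domain and act on interferon genes, on interferon-stimulated genes and on the development of immune cells. The family members described here are Irf1, Irf2, Irf3, Irf4, Irf5, Irf7, Irf8 and Irf9, chosen by gene symbol from the array's annotation, 8 genes of the 19937 measured. Affymetrix arrays measured them in plasmacytoid dendritic cells (pDCs) of the mouse spleen, which the labels give as positive for B220 and SiglecH. The samples were 3 labelled KO, from IRF8-deficient mice, and 3 labelled WT, each on 1 array. The sources used here do not give the strain, age, allele or any Cre driver of the mice. Nor do they say whether samples are separate animals, so p-values cover only the spread among these arrays, which may be technical.

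pDCs are known for secreting large amounts of type I interferon when their endosomal toll-like receptors bind nucleic acid. IRF7 is the factor known to switch on the interferon genes in these cells, and IRF5 acts on the same MYD88-dependent route towards inflammatory cytokines. IRF9 joins STAT2 to carry the signal of the interferon receptor to interferon-stimulated genes, and IRF8 and IRF4 are related factors of the lymphoid and myeloid lineages that bind DNA mostly together with a partner such as PU.1.

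The values are log2 expression levels as deposited, 1 per probe set and array. Array medians lay between 5.53 and 5.56, so a shift shared by all transcripts would be hidden. No member was dim: the lowest member value on any array was 7.32, above the 75th percentile of all gene levels, 7.21. The signal of a probe set also depends on its sequence, so levels of different members are not ordered here. Both arrays numbered 1 stood apart from the other 4 on the second principal component, which held 23.4% of the variance. KO replicate 1 scored 37.4 and WT replicate 1 scored 16.3, and the other 4 arrays -16.8 to -8.2. Results of the members and their pathway lists are therefore given with and without these arrays. Neutrophil genes were high on KO replicate 1. S100a8 and S100a9 were also high on WT replicate 1, at 9.34 and 9.12, against 4.87 and 5.99 on WT replicate 2. The median shift of the 8 listed genes from the WT mean was 0.24 on WT replicate 1. The mean level of the 8 listed neutrophil genes ran from 5.61 to 9.13 over the KO arrays and from 4.72 to 6.02 over the WT arrays, and the dimmest of them, Ly6g, averaged 3.98. None of the 8 passed the test over 6 arrays (0 also at an unadjusted p under 0.05 by limma), and S100a8 and Ngp rose with both arrays numbered 1 left out. Of the 9 measured pDC markers, Ccr9 and Pacsin1 passed the test, both lower, and the Ccr9 call was lost when KO replicate 2 or 3 or WT replicate 2 or 3 was left out (highest adjusted p 0.0817). The mean level of the 9 lay between 11.2 and 11.3 in KO and between 11.5 and 11.6 in WT. Of 7 T cell markers, Cd5 rose (difference 1.09) and Cd4 (-1.18) and Cd8b1 (-1.16) fell. The Cd5 call was lost when KO replicate 2 or 3 or WT replicate 2 was left out (highest limma adjusted p 0.0779). The 4 that did not pass differed by -0.08 for Cd3e, -0.02 for Cd3g, -0.29 for Cd3d and -0.75 for Thy1. WT means were 10.05 for Cd4, 10.29 for Cd8b1, 7.49 for Cd5 and 7.06 for Thy1. Those of Cd3e, Cd3d and Cd3g were 5.80, 5.05 and 3.99. Which cells gave the Cd4 and Cd8b1 signal was not tested. Of 6 NK cell markers none passed over 6 arrays by limma (1 higher and 1 lower at an unadjusted p under 0.05), and Nkg7 rose with both arrays numbered 1 left out. Over the whole array, 3203 of 19937 genes lay under that unadjusted p. In bulk samples of this kind, fewer cells of a type and less RNA per cell cannot be told apart.

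Of the 8 members, 1 rose, Irf2, and 1 fell, Irf5, by limma at a Benjamini-Hochberg adjusted p of 0.05 over all genes. The same test called 4.38% of all genes, 2.3% higher and 2.08% lower. These shares are the background for every list count given here. At an unadjusted p under 0.05 by limma lay 3203 of the 19937 genes. In 6 of 8 members the KO mean was the higher one, as in 41.8% of all genes. The members' median difference (KO minus WT) was 0.31 log2 units, against -0.04 over all genes. In 3 members the KO and WT values did not overlap, Irf2 and Irf4 with every KO array above every WT array and Irf5 with every KO array below. Over all genes this held for 20.4%, 8.71% upwards and 11.7% downwards. The other 5 members overlapped between genotypes. With both arrays numbered 1 left out, 2 members rose, Irf2 and Irf4, and Irf5 fell, where 741 genes in all were higher and 641 lower.

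**Figure D1:**
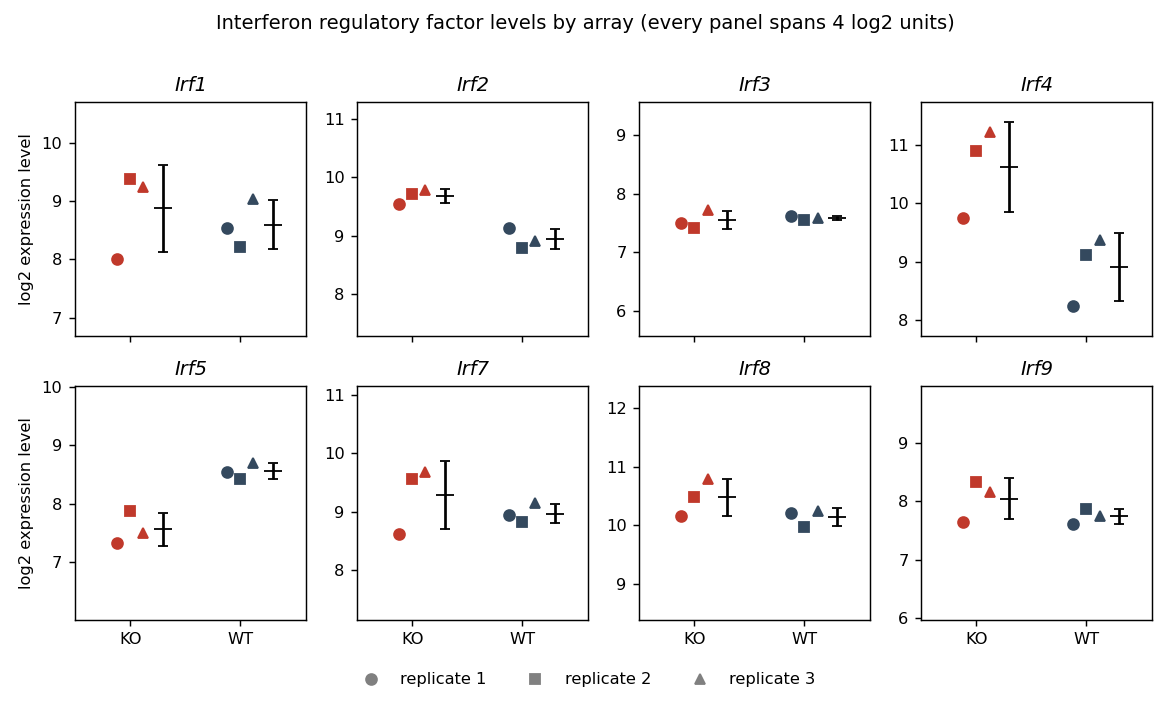
Log2 expression level (y axis) of each member on each array, KO left and WT right, with the mean and SD of 3 arrays beside the points and marker shapes for the replicate numbers. KO and WT points do not overlap for Irf2, Irf4 and Irf5, and KO replicate 1 is the lowest KO point for 7 of 8 members.

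Irf8 encodes the factor named in the genotype, a regulator of monocyte and dendritic cell development. Its signal was no lower in KO than in WT. Irf8 measured 10.15, 10.49 and 10.79 in KO replicates 1 to 3, against 10.21, 9.97 and 10.24 in WT replicates 1 to 3. KO replicate 1 lay within the WT range and the other KO arrays above it. The difference was 0.34 log2 units (SE 0.18, 95% interval -0.07 to 0.74, limma adjusted p = 0.425, exact permutation p = 0.30), or 1.26-fold. The altered exons are not named in the labels. A probe set outside them says nothing about the genotype, so the directions given here rest on the labels. The difference was 0.18 without KO replicate 3 (adjusted p = 0.803) and 0.50 without KO replicate 1 (adjusted p = 0.11), the extremes with any 1 array left out, and with both arrays numbered 1 left out it was 0.53 (adjusted p = 0.132). Next to Irf8 on its chromosome, the nearest measured genes also passed in neither direction: Cox4i1, a subunit of cytochrome c oxidase, averaged 11.43 in KO and 11.23 in WT (limma adjusted p = 0.663), and Foxf1, a forkhead factor, 5.02 in KO and 5.15 in WT (adjusted p = 0.659).

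The promoter of Irf8 is shown because Irf8 is the gene named in the genotype. It and the promoters printed further on are RefSeq sequences of the assembly GRCm38.p6, from 250 bases before to 50 bases after the start site. All 8 members matched a promoter there, and the entry with the lowest start coordinate is printed where a gene has several. Capitals mark matches to 3 motifs searched on both strands. They are TTCNNNGAA (GAS, the element of STAT dimers), GAAANNGAAA (the core of the ISRE, the element of IRFs, including IRF9 with its partner STAT2) and GGAANNGAAA (the composite element of PU.1 with IRF4 or IRF8).
Irf8 (chr8:120736108-120736407, + strand): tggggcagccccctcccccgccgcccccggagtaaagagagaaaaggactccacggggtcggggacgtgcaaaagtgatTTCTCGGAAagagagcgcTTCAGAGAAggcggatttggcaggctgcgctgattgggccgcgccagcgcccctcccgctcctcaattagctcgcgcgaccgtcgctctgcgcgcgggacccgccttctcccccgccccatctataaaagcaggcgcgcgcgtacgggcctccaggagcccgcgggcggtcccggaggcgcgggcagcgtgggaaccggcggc

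Both capitalised stretches of the Irf8 promoter are GAS matches, at -171 to -163 and at -153 to -145 from the start site. GAS letters occur in 8.3% of the 32851 mouse promoters in the same table, ISRE core letters in 3.44% and the composite letters in 2.72%. A match of letters describes the sequence and is not a measured site.

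Irf4, the closest relative of Irf8 and a factor of plasma cells, activated lymphocytes and some dendritic cells, had the largest difference of the 8 members in log2 units. Irf4 measured 9.75, 10.89 and 11.21 in KO replicates 1 to 3, against 8.24, 9.11 and 9.37 in WT replicates 1 to 3. Every KO array lay above every WT array, and replicate 1 was the lowest array of its genotype in both. The mean was 10.62 ± 0.77 in KO and 8.91 ± 0.59 in WT (SD, n = 3 each), a difference of 1.71 (SE 0.42, limma adjusted p = 0.0722), or 3.27-fold, with an exact permutation p of 0.10, which is the lowest possible with 3 against 3 arrays. The difference missed the threshold with all 6 arrays. It passed without KO replicate 1 (2.14, adjusted p = 0.00781) and with both arrays numbered 1 left out (1.81, adjusted p = 0.00202), and it missed when any of the other 5 arrays was left out (highest adjusted p 0.236).

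Irf4 was among the members whose arrays of 1 genotype differed most. Its within-genotype SD of 0.68 was larger than that of 98.9% of all genes, where the median was 0.17. That of Irf1, 0.61, was larger than 98.2% of genes, that of Irf7, 0.43, than 94.1%, and that of Irf3, 0.11, than 21.3%. Plasma cell markers moved with Irf4 in part. Of the 6 listed, Sdc1 rose by 2.48 (limma adjusted p = 0.00307) and Prdm1 by 3.49 (adjusted p = 0.000412). The 4 that did not pass differed by 0.77 for Jchain, -0.09 for Tnfrsf17, -0.25 for Xbp1 and -0.97 for Mzb1. The Jchain value rested on WT replicate 1. Jchain measured 7.24, 8.04 and 7.90 in KO replicates 1 to 3, against 4.49, 8.41 and 7.96 in WT replicates 1 to 3. The mean level of the 6 ran from 7.11 to 7.91 over KO arrays and from 6.09 to 6.90 over WT arrays. Tnfrsf17, the receptor BCMA, was the dimmest of them at a mean of 4.83. The part of plasma cells in the Irf4 difference was not tested. The promoter of Irf4, the member with the largest difference, holds none of the 3 motifs in its 300 bases and is printed without capitals.
Irf4 (chr13:30748983-30749282, + strand): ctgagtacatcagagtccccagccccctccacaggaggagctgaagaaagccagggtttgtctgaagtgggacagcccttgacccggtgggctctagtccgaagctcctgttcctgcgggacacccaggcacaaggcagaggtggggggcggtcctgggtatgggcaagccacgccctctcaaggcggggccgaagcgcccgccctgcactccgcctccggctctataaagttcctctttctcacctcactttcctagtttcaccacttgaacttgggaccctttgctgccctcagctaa

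Within each array, the Irf4 signal was set against the Irf8 signal to see whether the related factors differed by the same amount. Irf4 minus Irf8 was -0.40, 0.40 and 0.43 in KO replicates 1 to 3, against -1.96, -0.86 and -0.87 in WT replicates 1 to 3. The groups did not overlap. The log2 ratio was 1.37 higher in KO, so the signal ratio changed 2.59-fold (exact permutation p = 0.10, Benjamini-Hochberg adjusted p = 0.25 over the 5 pairs compared). It was 1.28 with both arrays numbered 1 left out. No p below 0.10 is possible here, so the pair did not pass a threshold, and the ratio does not show which transcript is more abundant.

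**Figure D2:**
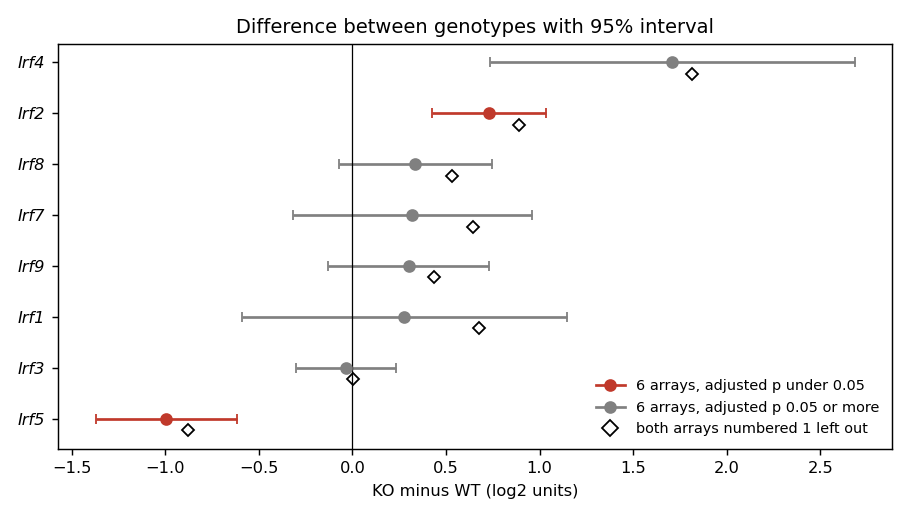
KO minus WT in log2 units (x axis) for each member, sorted, with 95% intervals of the limma fit over 6 arrays (circles, red where the adjusted p is under 0.05) and the difference with both arrays numbered 1 left out (open diamonds). Irf2 lies at 0.73 and Irf5 at -0.99, both red, and Irf4 at 1.71 with an interval from 0.74 to 2.68.

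Irf5, Irf7 and Irf3 encode the factors that sensing receptors switch on. Irf5, which acts below MYD88 on inflammatory cytokine genes, fell to 0.502 of its WT level. It measured 7.32, 7.87 and 7.49 in KO replicates 1 to 3, against 8.55, 8.42 and 8.70 in WT replicates 1 to 3. Every KO array lay below every WT array. The difference was -0.99 (SE 0.16, 95% interval -1.37 to -0.62, limma adjusted p = 0.0149, exact permutation p = 0.10). It was -0.88 without KO replicate 1 (adjusted p = 0.0192) and -0.88 with both arrays numbered 1 left out (adjusted p = 0.0353). The call was lost without KO replicate 3 (adjusted p = 0.0667) and without WT replicate 3 (adjusted p = 0.0658).

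Genes listed as markers of other myeloid cells differed between genotypes beside Irf5. Whether their signal came from such cells or from the pDCs themselves was not tested. Of 10 macrophage and monocyte markers, 8 were lower in KO, with a median difference of -0.33, and 1 passed the test. Over all genes, 41.8% had the higher mean in KO. C1qb, a chain of complement C1q, fell by 1.47 (limma adjusted p = 0.0385), a call lost when KO replicate 2 or 3 or WT replicate 2 or 3 was left out (highest adjusted p 0.137). C1qb, C1qc, Vcam1 and Csf1r fell and Ccr2 rose when neither array numbered 1 was used. The mean level of the 10 ran from 5.49 to 5.80 over the KO arrays and from 5.79 to 6.60 over the WT arrays, and Cd5l was the dimmest at a mean of 4.20. Of 9 conventional dendritic cell markers, 3 fell and 1 rose, all also without each single array and with both arrays numbered 1 left out. Clec9a, a receptor for dead cells, measured 3.53, 4.08 and 3.90 in KO replicates 1 to 3, against 10.14, 10.01 and 10.33 in WT replicates 1 to 3. It fell by 6.32 (limma adjusted p = 6.67e-06). The lectin gene Clec10a fell by 2.62 (adjusted p = 0.00152) and the adhesion gene Cadm1 fell by 1.71 (adjusted p = 0.00143), while Itgax, which encodes CD11c, rose by 1.78 (adjusted p = 0.00128). Differences of the markers that did not pass were -0.50 for Sirpa, -0.05 for Zbtb46, 0.12 for Xcr1, 0.27 for Clec4a4 and 0.49 for Wdfy4. Xcr1 was dim in both genotypes, with a mean of 4.62 in KO and 4.49 in WT, while Clec9a averaged 10.16 in WT. The list's median difference was -0.05, with 2 genes higher and 4 lower at an unadjusted p under 0.05 by limma. The mean level of the 9 ran from 6.18 to 6.33 over the KO arrays and from 7.09 to 7.29 over the WT arrays, and Clec4a4 was the dimmest at a mean of 2.81. The part of these cells in the Irf5 difference was not tested. The promoter of Irf5, the member that fell, holds none of the 3 motifs and 74.7% of its bases are G or C.
Irf5 (chr6:29526375-29526674, + strand): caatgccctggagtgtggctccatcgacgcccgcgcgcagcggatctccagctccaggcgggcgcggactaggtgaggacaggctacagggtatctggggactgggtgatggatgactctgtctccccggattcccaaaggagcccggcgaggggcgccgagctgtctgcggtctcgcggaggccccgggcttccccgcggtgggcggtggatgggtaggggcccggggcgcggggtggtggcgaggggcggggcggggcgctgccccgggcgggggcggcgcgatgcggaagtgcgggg

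Irf7, which is both the activator of interferon genes and itself induced by interferon, did not pass the test with all arrays. It measured 8.61, 9.57 and 9.69 in KO replicates 1 to 3, against 8.94, 8.82 and 9.15 in WT replicates 1 to 3. KO replicate 1 was the lowest of the 6 arrays and the other KO arrays were the highest. The difference was 0.32 (SE 0.27, 95% interval -0.32 to 0.96, limma adjusted p = 0.669). Without KO replicate 1 it was 0.66 and passed (adjusted p = 0.0353), and with both arrays numbered 1 left out it was 0.64 (adjusted p = 0.0654). Set against Irf5 within the same arrays, Irf7 minus Irf5 was 1.29, 1.70 and 2.20 in KO replicates 1 to 3, against 0.39, 0.40 and 0.45 in WT replicates 1 to 3. The groups did not overlap, and the signal ratio was 2.49-fold higher in KO (exact permutation p = 0.10, adjusted p = 0.25 over the 5 pairs). The log2 difference was 1.31, and 1.52 with both arrays numbered 1 left out. Beside Irf7, Cdhr5, a cadherin-like gene and the next measured gene on 1 side, fell by 0.60 (limma adjusted p = 0.0178). That call was lost when any 1 array other than KO replicate 1 was left out (highest adjusted p 0.0914). Among the nearest measured genes on either side of the 8 members, Cdhr5 was the 1 that passed.

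Irf3, the factor that TBK1 phosphorylates below nucleic acid sensors and that most cells express constitutively, measured 7.51, 7.43 and 7.72 in KO replicates 1 to 3, against 7.62, 7.55 and 7.58 in WT replicates 1 to 3. KO replicates 1 and 2 lay below the WT range and KO replicate 3 above it, so the range of KO enclosed that of WT. The difference was -0.04 with a 95% interval of -0.30 to 0.23 (SE 0.12, limma adjusted p = 0.931), so a change of the size of Irf2 or Irf5 lies outside this interval. Irf7 minus Irf3 was 0.35 higher in KO (exact permutation p = 0.40), with KO values of 1.10, 2.14 and 1.97 and WT values of 1.32, 1.27 and 1.57. This difference was 0.15 without KO replicate 2, 0.24 without KO replicate 3, 0.67 without KO replicate 1 and 0.64 without either array numbered 1.

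Irf1, Irf2 and Irf9 encode factors of the interferon response. Irf2 is known as an antagonist of Irf1 that competes for the same DNA element and limits interferon-stimulated transcription. Irf2 rose 1.66-fold in KO. It measured 9.54, 9.71 and 9.78 in KO replicates 1 to 3, against 9.14, 8.79 and 8.91 in WT replicates 1 to 3. All 3 KO arrays lay above the WT range. The difference was 0.73 (SE 0.13, 95% interval 0.43 to 1.03, limma adjusted p = 0.0218, exact permutation p = 0.10). It was 0.89 with both arrays numbered 1 left out (adjusted p = 0.0121). The call was lost when KO replicate 2 or 3 or WT replicate 2 or 3 was left out (adjusted p between 0.0788 and 0.0987). The promoter of Irf2 is shown because Irf2 was the member that rose and the only one of the 8 with all 3 motifs in the window.
Irf2 (chr8:46739495-46739794, + strand): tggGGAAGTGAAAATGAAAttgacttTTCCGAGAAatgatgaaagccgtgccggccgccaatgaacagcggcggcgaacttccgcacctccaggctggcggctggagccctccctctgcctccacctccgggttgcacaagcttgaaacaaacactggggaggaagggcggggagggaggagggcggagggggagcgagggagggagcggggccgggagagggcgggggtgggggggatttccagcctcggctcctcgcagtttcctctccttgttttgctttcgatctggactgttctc

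The composite PU.1-IRF letters of the Irf2 promoter lie at -247 to -238 and overlap the ISRE core letters at -241 to -232, and the GAS letters lie at -224 to -216. Among the members, Irf2 alone held ISRE core letters, and Irf1, Irf2 and Irf8 held GAS letters. The windows of the other members did not hold the ISRE core letters, which says nothing about sites outside these 300 bases or with other letters.

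Irf1, an activator that interferon gamma induces quickly, varied more between arrays than between genotypes. It measured 8.01, 9.37 and 9.24 in KO replicates 1 to 3, against 8.53, 8.22 and 9.04 in WT replicates 1 to 3. KO replicate 1 was the lowest of all 6 arrays. The difference was 0.28 (SE 0.37, limma adjusted p = 0.806) and 0.68 with both arrays numbered 1 left out (adjusted p = 0.204). A second Irf1 probe set, which shares no RefSeq transcript with the gene, measured 8.56, 8.52 and 8.58 in KO and 8.68, 8.35 and 8.64 in WT, a difference of -0.01 (adjusted p = 0.99 over all probe sets). The 2 probe sets differed in their spread, with an SD of 0.75 against 0.03 over the KO arrays. Irf1 minus Irf2 was 0.45 lower in KO on the brighter probe set (KO minus WT -0.45, exact permutation p = 0.60). It was -0.69 without KO replicate 2, -0.09 without KO replicate 1, -0.21 without WT replicate 3 and -0.21 when neither array numbered 1 was used.

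Irf9, the DNA-binding partner of STAT2, measured 7.65, 8.33 and 8.16 in KO replicates 1 to 3, against 7.62, 7.87 and 7.75 in WT replicates 1 to 3. KO replicates 2 and 3 lay above the WT range and KO replicate 1 lay within it. The difference was 0.30 (SE 0.18, limma adjusted p = 0.512), and 0.43 with both arrays numbered 1 left out (adjusted p = 0.135). Irf9 minus Irf8 differed by -0.03 between genotypes (exact permutation p = 0.70), with KO values from -2.62 to -2.16 and WT values from -2.59 to -2.10. It was -0.10 with both arrays numbered 1 left out.

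Interferon-stimulated genes, on which Irf9 and its partners act, were mostly higher in KO. Of 21 measured, 11 rose and 0 fell by limma over all genes, with a median difference of 1.14 log2 units, against -0.04 over all genes. At an unadjusted p under 0.05, 1 of them was lower: Bst2, an antiviral membrane protein and pDC marker, differed by -0.56. It fell with both arrays numbered 1 left out, where 12 rose. Rtp4, an interferon-induced chaperone of receptors, rose by 5.73 (SE 0.20, adjusted p = 1.73e-05), Oas2, a sensor of double-stranded RNA, by 3.65 (adjusted p = 2.8e-05) and Ifit3, which restricts viral RNA, by 3.21 (adjusted p = 0.00193). The signal of Ifit3 can include that of a near-identical copy. These calls held without each single array.

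Irf1, Irf7 and Irf9 and the interferon-stimulated genes did not follow the same order over the KO arrays. The median shift of the 21 genes from the WT mean was 1.31, 0.90 and 1.05 in KO replicates 1 to 3. In KO replicate 1, where that shift was highest, Irf7 lay 0.36 and Irf1 0.58 log2 units below the WT mean, with deviations of -0.36 and -0.58, and Irf9 had a deviation of -0.10. In KO replicates 2 and 3 these 3 members lay above the WT mean by 0.42 to 0.78 log2 units. Handling stress genes shifted by 0.11, 0.49 and 0.58 in KO replicates 1 to 3 and by 0.05, 0.21 and -0.29 in WT replicates 1 to 3, with 0 of 10 past limma's adjusted threshold over 6 arrays and 4 higher at an unadjusted p under 0.05. With both arrays numbered 1 left out, Junb, Ier2 and Atf3 of the 10 rose. Their mean level ran from 10.03 to 10.46 in KO and from 9.72 to 10.2 in WT. Neutrophil genes shifted by 3.999, 0.53 and 0.12 in KO replicates 1 to 3 and by 0.24, -0.15 and -0.17 in WT replicates 1 to 3. The part of handling and of neutrophils in the members' values was not tested.

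**Figure D3:**
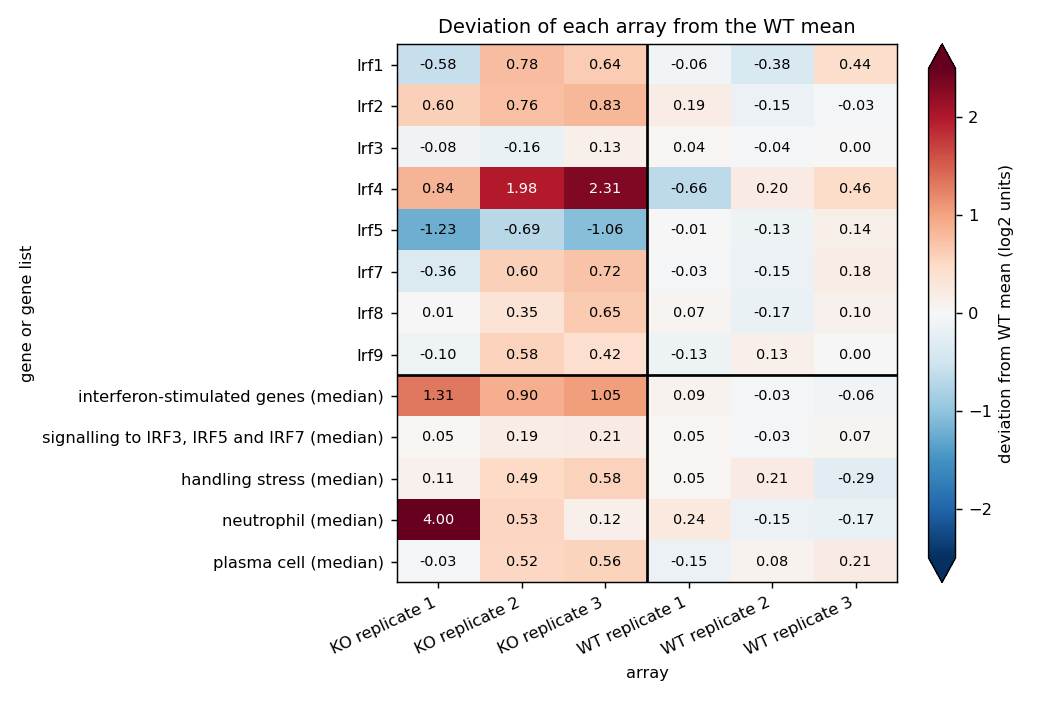
Deviation from the WT mean in log2 units (colour and printed value) of each member and of the median of 5 gene lists (rows) on each array (columns, KO left of WT). Irf4 reaches 2.31 in KO replicate 3, while KO replicate 1 combines negative deviations of Irf1 and Irf7 with the highest shifts of interferon-stimulated genes, 1.31, and neutrophil genes, 3.999.

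The ISRE core letters stood in 1 of the 8 member promoters. Of the 16 interferon-stimulated genes with a promoter in the table, 11 held them, as did 3.44% of all promoters. They stood in 6 of the 9 risen genes with a promoter and in 5 of the 7 that did not rise. The promoter of Ifit3 is shown as an example from the genes that rose and holds the ISRE core on the opposite strand at -156 to -147 and at -122 to -113.
Ifit3 (chr19:34583279-34583578, + strand): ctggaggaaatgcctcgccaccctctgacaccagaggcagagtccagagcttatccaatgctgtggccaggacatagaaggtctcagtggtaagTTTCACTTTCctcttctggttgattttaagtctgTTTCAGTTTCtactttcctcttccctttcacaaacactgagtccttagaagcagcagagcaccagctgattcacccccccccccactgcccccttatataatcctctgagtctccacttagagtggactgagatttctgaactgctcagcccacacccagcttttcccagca

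Genes that signal to Irf3, Irf5 and Irf7 moved both ways. Of 19 measured, 4 rose and 1 fell, with a median difference of 0.24, where 2.3% of all genes rose and 2.08% fell. Ddx58, which encodes the RNA sensor RIG-I, rose by 3.03 (limma adjusted p = 0.000126), and Zbp1, a sensor of Z-form nucleic acid, by 1.55 (adjusted p = 0.00852). Tlr3, an endosomal receptor of double-stranded RNA, differed by 0.87 and rose (adjusted p = 0.0236). Tlr7, the receptor for single-stranded RNA through which pDCs reach Irf7, fell by 0.60 (adjusted p = 0.0484). Leaving out KO replicate 2 or any 1 WT array ended the Tlr3 call (highest adjusted p 0.101). Leaving out any 1 array other than KO replicate 1 ended the Tlr7 call (highest adjusted p 0.165). Without either array numbered 1, Ddx58, Zbp1, Tlr3 and Irak2 rose and Tlr7 fell, with adjusted p-values of 0.0429 for Tlr3 and 0.0402 for Tlr7. Cgas, a DNA sensor that rose with all 6 arrays (0.64, adjusted p = 0.0232), no longer passed.

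Among 15 measured binding partners of IRFs, 1 rose and 0 fell, with a median of 0.04, where 2.3% of all genes rose and 2.08% fell. The 1 was Spi1, which encodes PU.1, the ETS factor that recruits Irf4 and Irf8 to composite elements. Spi1 measured 8.92, 9.06 and 9.13 in KO replicates 1 to 3, against 7.85, 7.93 and 7.95 in WT replicates 1 to 3. The groups lay far apart, and Spi1 rose by 1.13 (SE 0.11, limma adjusted p = 0.00161), also without each single array. At an unadjusted p under 0.05, 4 of the 15 were higher and 3 lower, where 3203 of all 19937 genes lay under it. With both arrays numbered 1 left out, 3 rose, Spi1, Batf and Junb. Stat2, the partner of Irf9, is in this list and did not pass.

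The listed interferon genes, type I genes and others such as Ifng, showed 0 calls by limma among 15 measured, with a median of -0.02. Of the 15, 10 had a KO mean below the median level of all genes. Ifng, the gene of interferon gamma, measured 6.84, 5.66 and 5.95 in KO replicates 1 to 3, against 5.11, 4.72 and 4.78 in WT replicates 1 to 3, a difference of 1.28 (limma adjusted p = 0.0538), and was the 1 of the 15 with an unadjusted p under 0.05. It passed without KO replicate 1 (adjusted p = 0.0179) or KO replicate 2 (adjusted p = 0.0495). Ifng rose by 1.06 with both arrays numbered 1 left out (adjusted p = 0.0100), the 1 call among the 15. Ifna13, an interferon alpha gene, differed by -0.37 (adjusted p = 0.313) at a low level and has similar copies.

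Of 16 interferon receptor and JAK-STAT genes, 2 rose and 2 fell, with a median of -0.02. Over all genes, 2.3% rose and 2.08% fell. Ifngr1, the ligand-binding chain of the interferon gamma receptor, rose by 1.51 (limma adjusted p = 0.0251), while Ifngr2, its second chain, fell by 0.54 (adjusted p = 0.0381). Socs3, a feedback inhibitor of cytokine receptors, rose by 0.99 (adjusted p = 0.0267), and Jak2, a kinase of the interferon gamma receptor, fell by 0.64 (adjusted p = 0.0168). Each of these 4 calls was lost when any 1 array other than KO replicate 1 was left out (highest adjusted p 0.152, for Ifngr2). With both arrays numbered 1 left out, Ifngr1, Socs3 and Usp18 rose and 0 fell, and Jak2 (adjusted p = 0.0525) and Ifngr2 (0.0684) no longer passed.

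Of 21 measured genes known as targets of IRF8 or IRF4, mostly from B cells and dendritic cells, 2 rose and 1 fell, with a median of 0.12. Over all genes, 2.3% rose and 2.08% fell. Prdm1, which encodes BLIMP1 and is a target of IRF4 in plasma cells, measured 9.02, 9.19 and 9.80 in KO replicates 1 to 3, against 5.75, 5.54 and 6.27 in WT replicates 1 to 3. It rose by 3.49 (SE 0.25, adjusted p = 0.000412) with groups far apart. Ciita, the activator of MHC class II genes, rose by 0.89 (limma adjusted p = 0.00717), and Pml, the gene of a nuclear body protein, fell by 0.57 (adjusted p = 0.0451). The Pml call was lost when any 1 array other than KO replicate 1 was left out (highest adjusted p 0.172). With both arrays numbered 1 left out, Prdm1 (3.59, adjusted p = 0.00113), Ciita (0.83, adjusted p = 0.0157) and Id2 rose and Pml fell (adjusted p = 0.0287). B cell markers moved with this list in part. Of the 8 measured, 3 rose and 0 fell (5 higher and 0 lower at an unadjusted p under 0.05), with a median of 0.45. Cd79a, a chain of the B cell receptor complex, rose by 1.65 (limma adjusted p = 0.00603), Cd22, an inhibitory coreceptor, by 1.51 (adjusted p = 0.0213) and Fcer2a, the low-affinity IgE receptor, by 0.60 (adjusted p = 0.0202). The 5 that did not pass differed by 0.57 for Ebf1, 0.32 for Pax5, -0.08 for Cd79b, -0.10 for Cr2 and -0.17 for Ms4a1. The Cd79a call held without each single array. That of Cd22 was lost without KO replicate 3 and without WT replicate 2 or 3 (highest adjusted p 0.0922). That of Fcer2a was lost without 4 of the 6 single arrays (highest adjusted p 0.0999) and with both arrays numbered 1 left out (adjusted p = 0.052). The mean level of the 8 ran from 5.29 to 5.63 over the KO arrays and from 4.80 to 4.99 over the WT arrays, and Ms4a1, which encodes CD20, was the dimmest at a mean of 3.48. The part of B cells and of conventional dendritic cells in these values was not tested.

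**Figure D4:**
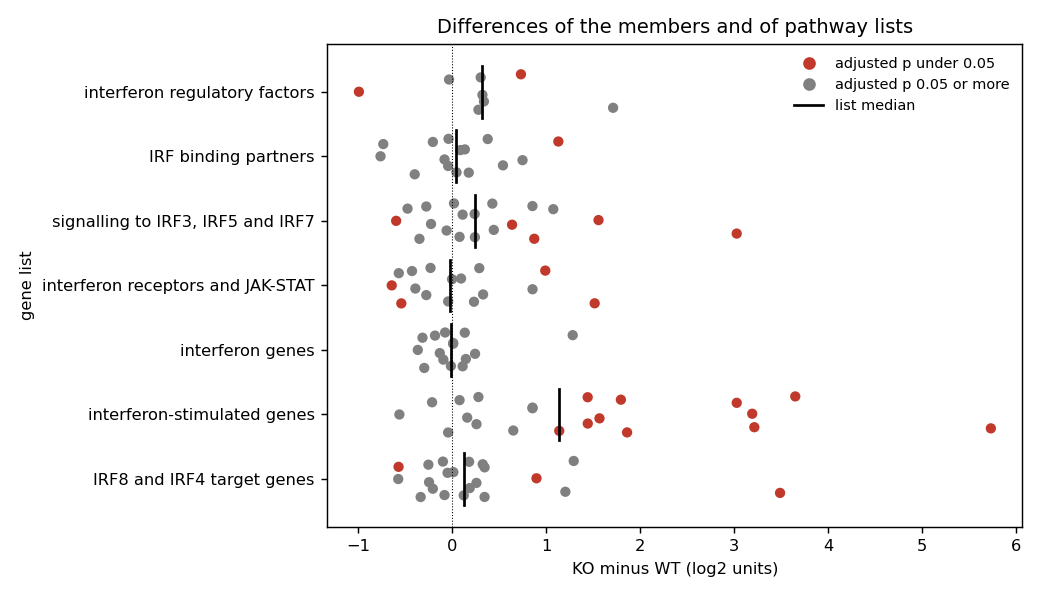
KO minus WT in log2 units (x axis) for the 8 members and each measured gene of 6 pathway lists (rows), red where the limma adjusted p is under 0.05, with the list median as a vertical bar. The members lie between -0.99 and 1.71, while 11 of 21 interferon-stimulated genes are red and reach 5.73.

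The genes whose array profile was most like that of a member were sought for Irf8, Irf2 and Irf5 among 9407 brighter genes, by the root mean square difference over the 6 arrays of deviations from the WT mean. With so many candidates and 6 arrays, the names describe a likeness only. Closest to Irf8 were Tpm1 at 0.05 log2 units, Ppp3cb at 0.06 and Dcaf8 at 0.06, none of which passed the test. Closest to Irf2 were Slc9a3r1 at 0.07, Fxyd5 at 0.07 and Ubl3 at 0.08. They rose by 0.69, 0.68 and 0.75. Closest to Irf5 were As3mt at 0.10, Pkib at 0.12 and Mctp2 at 0.13, which fell by 0.94, 1.10 and 0.89. Of these 6 calls, that of Pkib held without each single array, and the others were lost without 2 to 4 of them (highest adjusted p 0.123, for Mctp2). That of As3mt was also lost with both arrays numbered 1 left out (adjusted p = 0.0501).

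**Figure D5:**
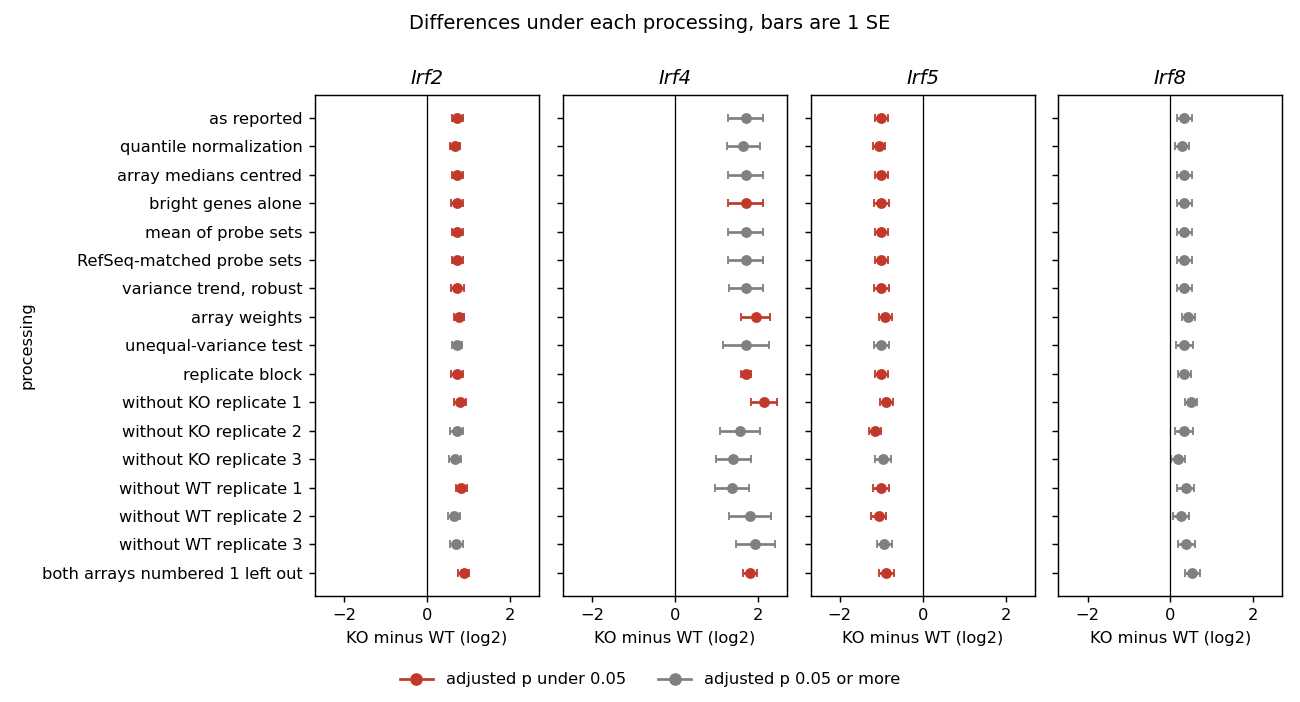
KO minus WT in log2 units (x axis) of Irf2, Irf4, Irf5 and Irf8 under each processing (rows), with bars of 1 SE, red where the adjusted p is under 0.05. Irf4 stays between 1.38 and 2.14 and is red under 5 of 16 alternatives, while Irf8 is red under none.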

How the data were processed

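The authors deposited log2 expression levels of 34760 probe sets on 6 Affymetrix arrays. Their scale follows from the range of the values. The sources used here do not give the background correction, summarisation or normalization. NuGen PICO SL amplification of total RNA preceded biotin labelling, per the labels' protocols. The platform's annotation table gave 1 symbol to 21640 probe sets, several to 1321 and did not list 11799. The brightest probe set by 6-array mean stood for each of 19937 genes, of which 19854 matched RefSeq by Entrez identifier. KO was compared with WT by limma 3.58.1 in R 4.3.3 (lmFit and eBayes, no covariate), two-sided, with Benjamini-Hochberg adjustment over all genes. The fit was also run on simulated data with known differences, drawn independently for each array. These held no effect shared by arrays, so the run gives no rate of false calls for the real data. Single values and within-array differences had exact two-sided permutation tests over 20 relabellings. The number of arrays limits the precision.

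The members and lists were chosen with earlier results of these data known. Named genes were, by rule, all members, the 3 genes most like Irf8 and each called member, and up to 3 largest rises and falls past the threshold in each pathway list (with none past it, the 2 largest differences). Neighbours of Irf8, Cdhr5, marker genes, Bst2, Batf, Junb, Usp18, Cgas, Irak2, Id2 and Stat2 were named outside that rule. Alternatives were quantile normalization, centred medians, brighter genes alone, mean of probe sets, RefSeq-matched probe sets, a robust variance trend, array weights (statmod 1.5.0), an unequal-variance test, a replicate block, each array left out and both arrays numbered 1 left out. Figures used matplotlib 3.10.9.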

Additional observations from a re-analysis of the deposited data

How the results depend on the processing

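Irf1, Irf8 and Irf9 kept their direction and stayed without a call under all 16 alternatives. Irf2 and Irf5 kept their direction under all 16 and lost their calls under the unequal-variance test (0.73, adjusted p = 0.264, and -0.99, adjusted p = 0.327) and under the single-array losses given above. That test called 0 members, 0 interferon-stimulated genes, and 2 genes higher and 2 lower in all. The cause was not tested. Irf4 gained a call among brighter genes alone (1.71, adjusted p = 0.0431), where fewer genes were tested, with array weights (1.95, 0.0147), with both arrays numbered 1 left out (1.81, 0.00202) and under the replicate block (1.71, 0.000673), so under these 4 settings 2 members were higher. Irf3 changed sign with both arrays numbered 1 left out (0.0043) and without KO replicate 2 (0.028). Over all genes, 459 were higher and 415 lower. Array weights gave 716 and 647, both arrays numbered 1 left out 741 and 641, and the replicate block 707 and 655. Under each of these 3, 1 interferon-stimulated gene was lower (Bst2), against 0.

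Leaving out 1 array at a time moved the counts between 0 and 3 members higher, 0 and 1 lower, 249 and 780 genes higher, 202 and 719 lower, and 9 and 12 interferon-stimulated genes higher and 0 and 1 lower (median 0.91 to 1.26). Differences then ran from 0.03 to 0.71 for Irf1, 0.65 to 0.82 for Irf2, -0.12 to 0.03 for Irf3, 1.38 to 2.14 for Irf4, -1.15 to -0.88 for Irf5, 0.12 to 0.66 for Irf7, 0.18 to 0.50 for Irf8, 0.16 to 0.50 for Irf9, 1.01 to 1.65 for Irf4 minus Irf8, 1.08 to 1.53 for Irf7 minus Irf5, 0.15 to 0.67 for Irf7 minus Irf3, -0.69 to -0.09 for Irf1 minus Irf2 and -0.17 to 0.11 for Irf9 minus Irf8, which changed sign without WT replicate 2 (0.11), KO replicate 1 (0.0027) or KO replicate 3 (0.064).

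Deviations from the genotype means correlated by 0.379, 0.0968 and 0.252 between samples numbered 1, 2 and 3. KO replicates 1 and 3 correlated best with the WT array of the same number, and KO replicate 2 with WT replicate 3. The labels do not say whether samples with the same number were handled together, and these values cannot decide it. The block changed no member's call other than that of Irf4.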
